A study of Mus musculus with 6 samples.

Results

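The genes described here are 37 genes, mostly of the postsynaptic density, the protein scaffold under the membrane of excitatory synapses in which the NMDA receptor (NMDAR) is anchored. They were taken by gene symbol from the annotation of the array, as a fixed list of scaffolds, kinases, other enzymes and adhesion genes. Nlgn2, a neuroligin of inhibitory synapses, is also on the list. All 37 were measured and passed the signal filter, among 16663 genes tested. For each gene the probeset with the highest mean over the 6 arrays was used. RNA came from the hypothalamus of female C57Bl/6J mice at 21 weeks of age. The labels give the control group (CON, 3 arrays) no drug. In the CGP group (3 arrays) the mothers received CGP 39551, a competitive NMDAR antagonist, by mouth at 5 mg/kg body weight from pregnancy to the end of weaning, so that exposure had ended well before adulthood. RNA from 18 mice was pooled in each group, and the methods, written for male mice, put the pool of each group on 3 arrays. The labels of these female arrays name no separate pools, so that the errors and p-values below are taken as technical spread and do not cover differences between mice. The methods of the study, written for its male mice, describe an overnight fast and killing under xylazine and ketamine, itself an NMDAR blocker, with no difference between groups. The comparison asks whether blocking the receptor during development left a difference in the adult expression of the genes whose proteins hold and serve it.

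At an excitatory synapse, MAGUK scaffolds bind the tails of NMDAR subunits and are linked through SAPAP proteins to Shank proteins, and Shank is linked in turn to Homer proteins and the actin of the spine. Calcium entering through the receptor activates CaMKII, calcineurin, neuronal nitric oxide synthase and regulators of small GTPases that are held in the same complex. Neuroligins and LRRTM proteins in the postsynaptic membrane bind neurexins across the cleft. In the hypothalamus, NMDAR-dependent growth of spines on AgRP neurons is known from studies of fasting.

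No gene of the 37 was called by the main limma model at an adjusted p of 0.05 in either direction (0 higher and 0 lower in CGP), and an unmoderated linear model called 0 as well. With a trended and robust variance model, limma called 2 higher, Shank3 and Lrrtm1, and it called 249 probesets over the table against 51. Over all 16663 genes tested, the main model called 0.144% higher and 0.138% lower, so that its count of 0 in 37 lay at the background. Adjusted p-values of the 37 genes lay between 0.169 and 0.994 (limma, Benjamini-Hochberg over 18239 probesets). At an unadjusted p under 0.05, 8 of the 37 were higher in CGP (21.6%), against 5.26% of all genes, and 0 were lower, against 5.58% of all genes. With the unmoderated model 8 were higher and 2 lower (Rasgrf1 and Lrrtm3), and Shank2 and Lrrtm2 were not among the 8. In limma the 8 were Shank3, Lrrtm1, Ptk2b, Kalrn, Dlgap3, Camk2a, Shank2 and Lrrtm2. These genes were chosen with results of the same arrays known, and the counts are a description and no test of the list. Differences were small throughout, from -0.096 for Cnih3 to 0.21 for Shank3 on the log2 scale, and the 95% intervals of all 37 genes (unadjusted, over arrays) lay between -0.23 and 0.32, inside a change of 1.4-fold (0.49) either way.

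**Figure D1:**
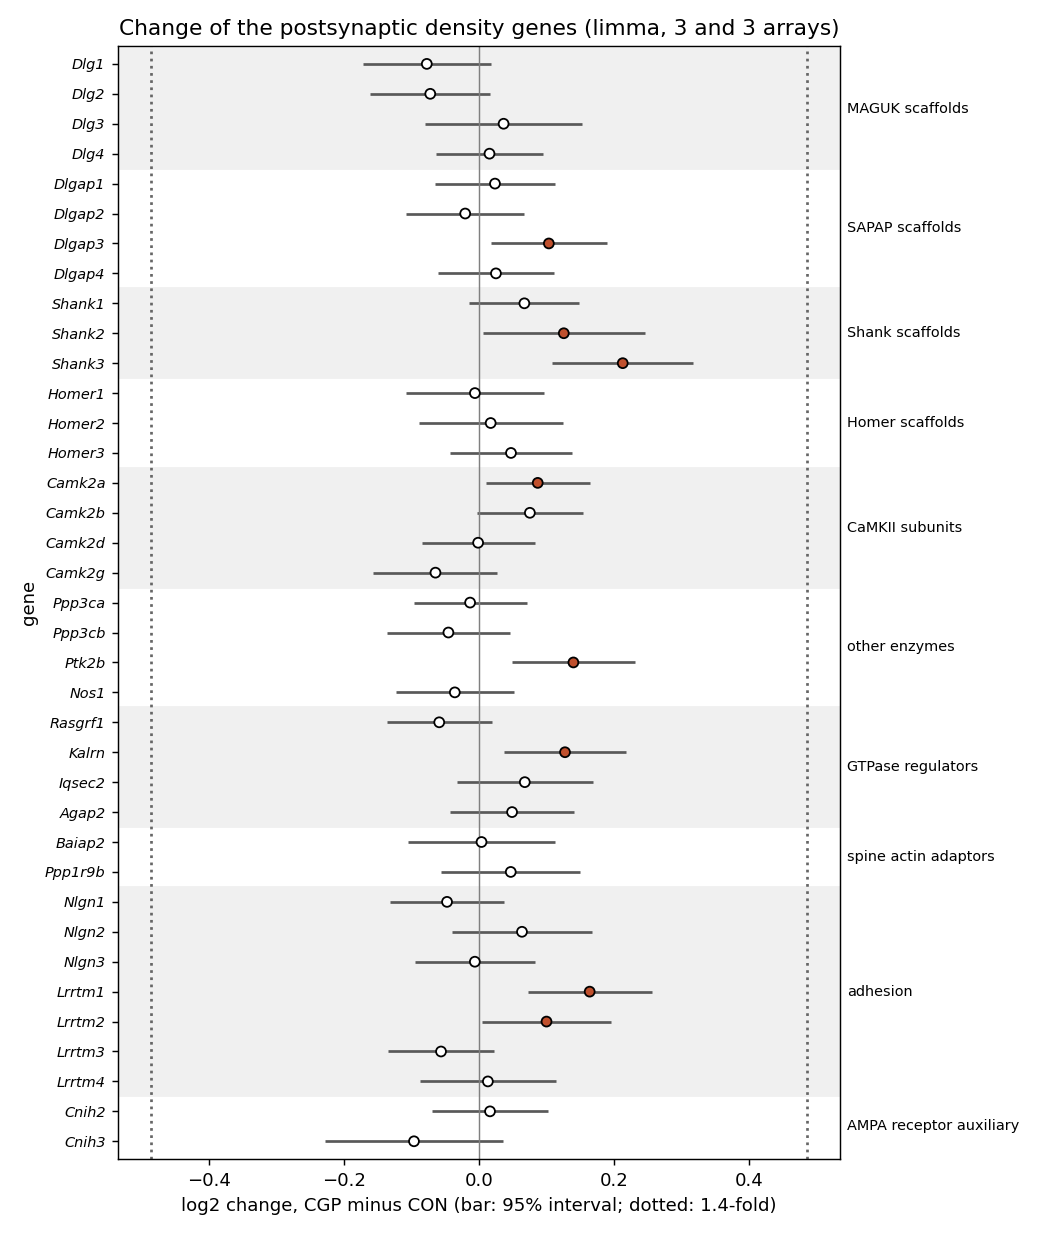
Log2 change, CGP minus CON, of the 37 genes, ordered by role. Points are the differences of the means of 3 arrays each and bars their 95% intervals from the main limma model. Filled points have an unadjusted p under 0.05, and none passed the adjusted p in that model. Shank3 stands furthest to the right at 0.21, and no bar reaches the dotted lines at 1.4-fold.

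The promoters of the 3 genes with the lowest p for which RefSeq gave a window (Shank3, Lrrtm1 and Kalrn) are shown here, as windows of 300 bases that run from before to just after the annotated start, since they carry the largest differences between the groups with a sequence at hand. They were read on assembly GRCm38.p6, in the direction of transcription. Capitals mark the GC box GGGCGG or its reverse complement, to which factors of the Sp family are known to bind. Ptk2b, whose p lay between those of Lrrtm1 and Kalrn, is named only.
Shank3 (chr15:89499358-89499657, plus strand): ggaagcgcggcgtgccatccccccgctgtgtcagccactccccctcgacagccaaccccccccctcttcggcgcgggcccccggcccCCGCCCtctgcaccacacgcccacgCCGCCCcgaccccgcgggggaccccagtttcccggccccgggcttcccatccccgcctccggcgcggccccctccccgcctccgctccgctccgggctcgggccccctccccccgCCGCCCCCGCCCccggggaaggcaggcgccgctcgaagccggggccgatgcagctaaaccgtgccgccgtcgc
Lrrtm1 (chr6:77242227-77242526, plus strand): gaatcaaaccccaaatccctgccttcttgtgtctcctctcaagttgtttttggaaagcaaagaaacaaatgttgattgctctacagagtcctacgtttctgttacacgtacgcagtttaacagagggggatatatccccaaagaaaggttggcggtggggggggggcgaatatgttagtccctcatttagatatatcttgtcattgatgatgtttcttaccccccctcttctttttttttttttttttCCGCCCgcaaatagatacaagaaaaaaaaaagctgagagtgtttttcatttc
Kalrn (chr16:34513978-34514277, minus strand): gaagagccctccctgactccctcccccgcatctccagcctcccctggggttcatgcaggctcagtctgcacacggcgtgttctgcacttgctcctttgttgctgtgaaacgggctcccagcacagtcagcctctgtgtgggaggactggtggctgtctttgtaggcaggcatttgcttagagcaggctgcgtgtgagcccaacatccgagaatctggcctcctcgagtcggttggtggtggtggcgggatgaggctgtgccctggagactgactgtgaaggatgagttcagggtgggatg
The Shank3 window had a GC content of 81.0% with 40 CpG sites and 4 GC boxes, that of Lrrtm1 40.7% with 7 CpG sites and 1 GC box, and that of Kalrn 60.3% with 9 CpG sites and 0 GC boxes. These promoters thus had little composition in common. In all, 42 windows of 28 of the 37 genes were listed, against 32851 windows of 27025 genes in the whole table. The whole table was not limited to genes tested on the arrays, and a gene could have more than 1 window. The members' windows had a median GC content of 57.2% and a median of 12.5 CpG sites, against 52.7% and 7 over all windows. A GC box on either strand stood in 45.2% of the members' windows and in 35.7% of all windows, with no allowance made for GC content. The EGR motif GCGTGGGCG, sought on both strands, stood in 1 of the 42 (2.38%), the Shank3 window, where it meets the edge of a GC box, and in 0.612% of all windows. The CRE motif TGACGTCA stood in 0 of the 42 and in 1.79% of all windows, and TATAAA in 11.9% and 13.6%. A match describes these letters and is no evidence of binding.

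The Shank genes encode the large scaffolds that join SAPAP and receptor complexes to Homer and actin, and all 3 had a higher mean in CGP. Shank3 had log2 signals of 9.46, 9.37 and 9.48 on the CON arrays and of 9.70, 9.61 and 9.63 on the CGP arrays. The lowest CGP array stood 0.13 above the highest CON array. Means (± SD, n = 3 arrays) were 9.43 ± 0.059 for CON and 9.65 ± 0.051 for CGP, which is 1.16-fold. On the log2 scale the difference was 0.21 with a standard error (SE) of 0.045 (95% interval 0.11 to 0.32, adjusted p = 0.169 from limma). It was the largest difference of the 37 genes, and it did not pass the test, though with a trended and robust variance model it did (adjusted p = 0.0132 from limma). For Shank2 the signals were 9.22, 9.18 and 9.32 in CON and 9.34, 9.32 and 9.44 in CGP, so that the groups overlapped at the highest CON array. The difference was 0.13 (SE 0.052, adjusted p = 0.434 from limma). Shank1 was at 10.13, 10.14 and 10.15 in CON and at 10.24, 10.20 and 10.18 in CGP, with the groups apart by 0.030 and a difference of 0.067 (adjusted p = 0.532 from limma).

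Shank2 was measured by 3 probesets with 1 gene, Dlgap1 and Homer2 by 2 each, and the others by 1. The probesets of Shank2 did not give the same difference. The dimmest, with means of 7.94 ± 0.028 and 8.06 ± 0.030 (SD, n = 3 arrays, CON first), had a difference of 0.12 with the groups apart, while the third had a difference of 0.0088. For Dlgap1 the brighter probeset used above had a difference of 0.024 with overlapping groups. The other lay at 10.23, 10.22 and 10.18 in CON and at 10.29, 10.42 and 10.39 in CGP, a difference of 0.16 (SE 0.045, adjusted p = 0.288 from limma) with the groups apart. The value of Dlgap1 thus depended on the probeset. The probesets of Homer2 had differences of 0.017 and 0.056, both with overlapping groups.

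**Figure D2:**
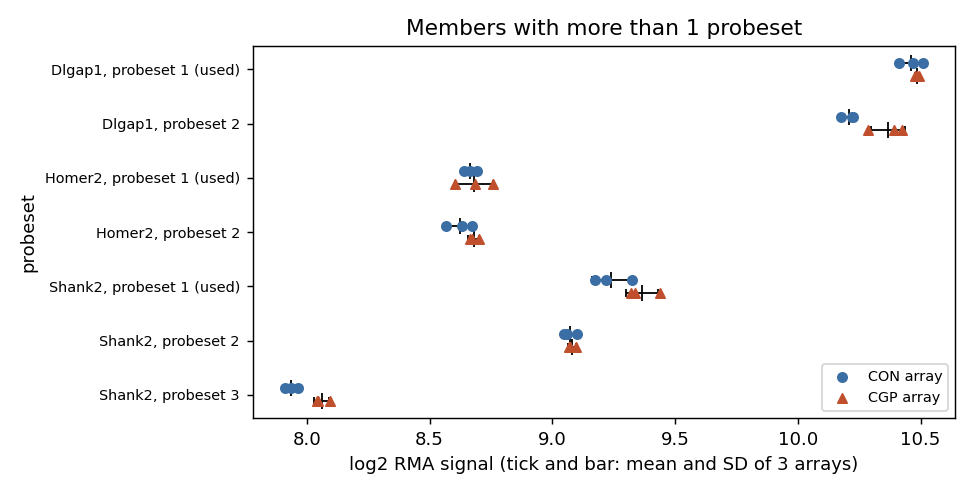
Log2 RMA signal of each probeset of Dlgap1, Homer2 and Shank2. Each circle is a CON array and each triangle a CGP array (3 per group), and a tick with its bar gives mean and SD. The groups lie apart for the dimmer Dlgap1 probeset (10.21 in CON, 10.37 in CGP) and the dimmest Shank2 probeset (7.94 and 8.06), and they overlap for the other probesets.

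The MAGUK genes encode the scaffolds that bind NMDAR subunits directly, and none had all its CGP arrays above the CON arrays. Dlg4, the gene of PSD-95, the most abundant of these scaffolds at mature excitatory synapses, had means (± SD, n = 3 arrays) of 11.98 ± 0.026 for CON and 11.99 ± 0.012 for CGP. Its difference was 0.016 (95% interval -0.064 to 0.095, adjusted p = 0.904 from limma). Dlg1 was at 10.11, 10.10 and 10.10 in CON and at 10.09, 10.02 and 9.97 in CGP. Its CGP arrays all lay below the CON arrays, by 0.0079 at the nearest, and the difference of -0.077 did not pass (adjusted p = 0.535 from limma). Dlg2 was likewise lower on every CGP array, with 10.00, 10.05 and 9.99 in CON and 9.98, 9.93 and 9.91 in CGP, a difference of -0.072 with the nearest arrays only 0.0042 apart. Dlg3, an X-linked member, overlapped, with a difference of 0.036.

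SAPAP genes (Dlgap1 to Dlgap4) encode the proteins between MAGUK and Shank scaffolds. Dlgap3 was at 10.08, 10.13 and 10.06 in CON and at 10.20, 10.22 and 10.17 in CGP. Its groups were apart by 0.034, and the difference of 0.10 (SE 0.037, adjusted p = 0.399 from limma) did not pass. Dlgap2 and Dlgap4 overlapped, with differences of -0.020 and 0.025. The Homer genes, whose products tie Shank to metabotropic glutamate receptors, all overlapped too. Homer1 had a difference of -0.0061, Homer2 of 0.017 and Homer3 of 0.047. A short form of Homer1 is known to be induced by activity, and the single Homer1 probeset gives no value of its own for that form.

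Among the kinases, the subunits of CaMKII differed from one another in direction. Camk2a, the gene of the main forebrain subunit, which binds the NMDAR after activation, was at 12.39, 12.37 and 12.40 in CON and at 12.49, 12.47 and 12.46 in CGP. The groups were apart by 0.064, and the spread within each was small (SD 0.015 in CON and 0.013 in CGP). The difference was 0.087 (SE 0.033, adjusted p = 0.412 from limma). Camk2b, the gene of the actin-binding subunit, showed a like pattern, with 11.92, 11.95 and 11.90 in CON, 12.01, 12.00 and 11.99 in CGP and a difference of 0.075 (adjusted p = 0.469 from limma). Camk2g, more widely expressed over tissues, was lower on every CGP array (10.68, 10.68 and 10.61) than on any CON array (10.70, 10.77 and 10.70), a difference of -0.064. Camk2d was at 11.05 in both groups, with a difference of -0.0013. Whether the subunits differed from each other in response was not tested.

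Ptk2b encodes the calcium-activated tyrosine kinase Pyk2, which is known to act on NMDAR through Src family kinases. Its signals were 9.69, 9.67 and 9.68 on the CON arrays and 9.79, 9.88 and 9.79 on the CGP arrays. CON arrays lay very close to each other (SD 0.0095), and CGP replicate 2 stood above the other CGP arrays. The difference was 0.14 (SE 0.040, 95% interval 0.048 to 0.23, adjusted p = 0.292 from limma). The catalytic calcineurin genes Ppp3ca and Ppp3cb had differences of -0.013 and -0.045 with overlapping groups. Nos1, the gene of neuronal nitric oxide synthase, which PSD-95 tethers near the receptor, had means (± SD, n = 3 arrays) of 9.65 ± 0.012 for CON and 9.61 ± 0.047 for CGP, a difference of -0.036 (adjusted p = 0.766 from limma).

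Of the regulators of small GTPases, Kalrn encodes kalirin, an exchange factor for Rac that shapes spines. Its signals were 9.46, 9.43 and 9.42 in CON and 9.62, 9.55 and 9.52 in CGP. The groups were apart by 0.061, with a difference of 0.13 (SE 0.039, 95% interval 0.037 to 0.22, adjusted p = 0.334 from limma). Iqsec2, an exchange factor for Arf proteins, and Agap2, an Arf-directed GTPase activator, were also higher on every CGP array. Their nearest arrays were only 0.0056 and 0.0059 apart, and their differences were 0.068 and 0.049. Rasgrf1, a calcium-dependent activator of Ras that binds NMDAR, went the other way, with 11.32, 11.31 and 11.31 in CON, 11.28, 11.25 and 11.23 in CGP and a difference of -0.059 (adjusted p = 0.564 from limma). The spine actin adaptors Baiap2 and Ppp1r9b overlapped, with differences of 0.0037 and 0.047.

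**Figure D3:**
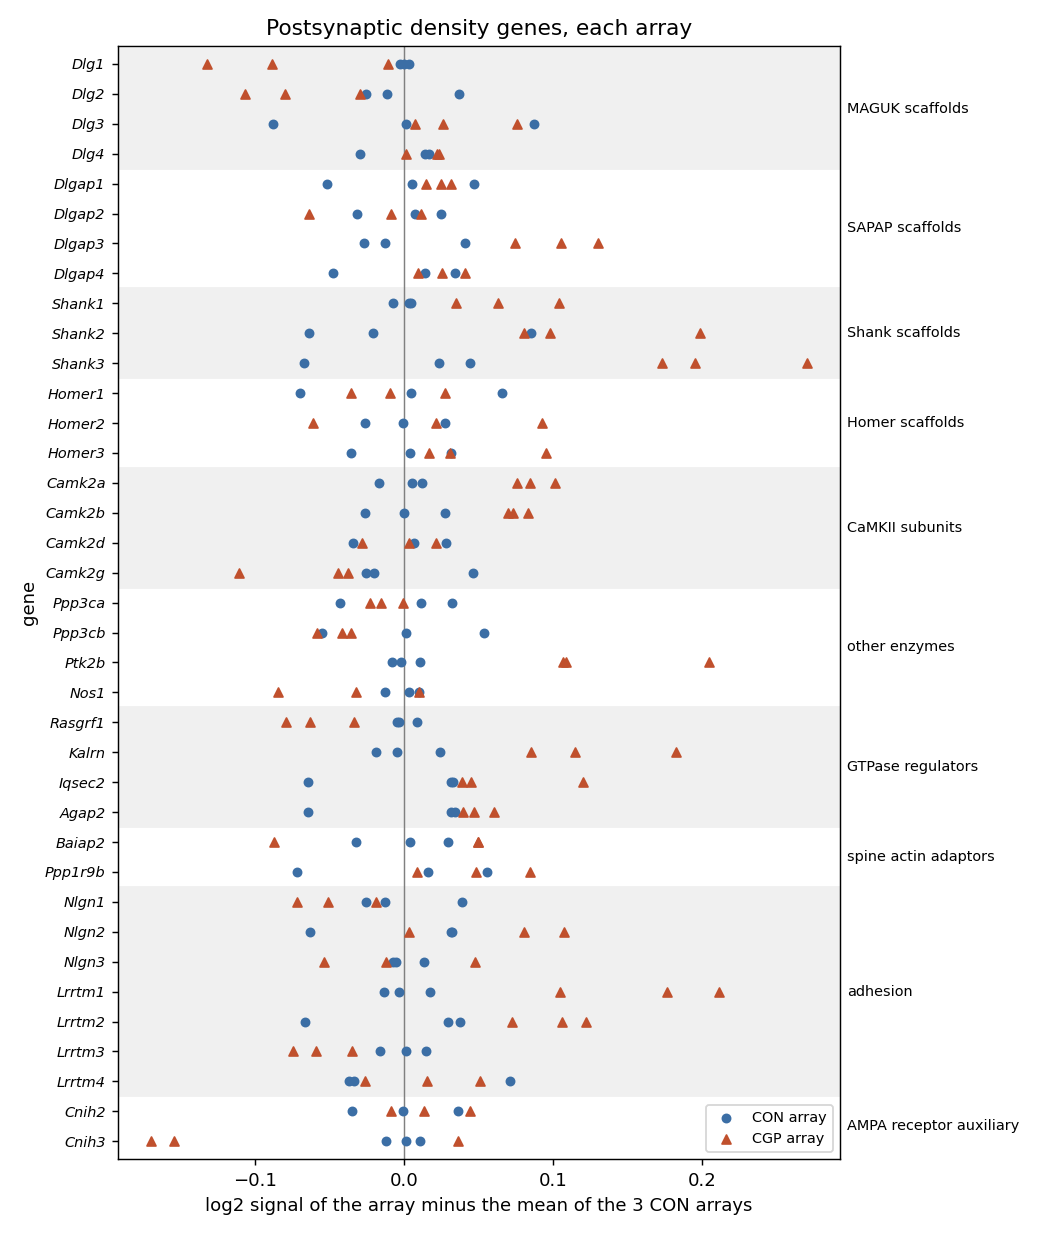
Log2 signal of each array minus the mean of the 3 CON arrays for the 37 genes, ordered by role. Circles are CON arrays and triangles CGP arrays. The triangles lie wholly to the right of the circles for 11 genes, Shank3 furthest, and wholly to the left for 5.

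Adhesion genes showed their largest differences among the LRRTM genes. Lrrtm1, a neurexin ligand of excitatory synapses, was at 9.54, 9.52 and 9.51 in CON and at 9.73, 9.70 and 9.62 in CGP. All CGP arrays lay above the CON arrays, by 0.087 at the nearest. The difference was 0.16 (SE 0.040, 95% interval 0.072 to 0.26, adjusted p = 0.230 from limma), the second largest after Shank3. It too passed only with the trended and robust variance model (adjusted p = 0.0411 from limma), among the 14 alternatives run. Lrrtm2 had signals of 10.69, 10.60 and 10.70 in CON and of 10.79, 10.77 and 10.74 in CGP, with a gap of 0.035 and a difference of 0.100 (adjusted p = 0.434 from limma). Lrrtm3 went the other way, with 10.67, 10.68 and 10.65 in CON, 10.64, 10.60 and 10.61 in CGP and a difference of -0.056. Lrrtm4 overlapped, with a difference of 0.013. In RefSeq (GRCm38.p6) Lrrtm1, Lrrtm2 and Lrrtm3 lie inside the α-catenin genes Ctnna2, Ctnna1 and Ctnna3, so the host genes were looked up after these values were seen. Their differences were 0.0079, -0.067 and 0.022, all with overlapping groups, and the difference between a host and the gene inside it was not tested. Shank1, Homer3 and Cnih2 each overlap another gene in RefSeq, so that their probesets may share signal with it.

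The neuroligins overlapped between the groups in every case. Nlgn1, a neuroligin of excitatory synapses, had a difference of -0.047, Nlgn2, a neuroligin of inhibitory synapses, of 0.064, and Nlgn3 of -0.0062. The AMPA receptor auxiliary gene Cnih2 had a difference of 0.016. For Cnih3, the other cornichon gene, CGP replicates 1 and 3 lay at 8.74 and 8.73 and CGP replicate 2 at 8.93, above all CON arrays (8.91, 8.88 and 8.90). This was the widest spread within a group among the 37 genes (SD 0.11), and the difference of -0.096 (95% interval -0.23 to 0.035) was the lowest. Without CGP replicate 2 it was -0.16 (adjusted p = 0.388 from limma), and without CGP replicate 3 it was -0.059.

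Counted over the 37 genes, the CGP arrays all lay above the CON arrays for 11 (29.7%) and all below for 5 (13.5%). Among all genes tested these shares were 7.69% and 9.63%. After each array was centred on the median of its tested probesets, 10 members lay above and 5 below. The shares over all genes then turned to 10.3% above and 8.06% below. The 11 were Dlgap3, Shank1, Shank3, Camk2a, Camk2b, Ptk2b, Kalrn, Iqsec2, Agap2, Lrrtm1 and Lrrtm2, and the 5 were Dlg1, Dlg2, Camk2g, Rasgrf1 and Lrrtm3. With a signal minimum of 8, set after the dimmest member had been seen at a mean of 8.17, the shares over all genes were 7.90% and 12.6%. The members' own spread was lower than usual, with a median SD of 0.034 in CON and 0.038 in CGP against 0.049 and 0.053 over all genes.

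The median difference of the 37 genes was 0.017, against -0.0020 over all genes, and 23 were above 0 and 14 below. It was 0.0041 without CON replicate 3 and 0.029 with arrays centred on the medians of their tested probesets. By role, the median for the 3 Shank genes was 0.13, the difference of the Shank2 probeset used, whose other probesets had 0.12 and 0.0088. The median was 0.058 for the 4 GTPase regulators, 0.037 for the 4 CaMKII subunits and 0.025 for the 2 spine actin adaptors. It was 0.024 for the 4 SAPAP genes, 0.017 for the 3 Homer genes and 0.013 for the 7 adhesion genes. It was below 0 for the 4 other enzymes (-0.025), the 4 MAGUK genes (-0.028) and the 2 AMPA receptor auxiliary genes (-0.040). The arrays of the CGP group were not alike in this. On CGP replicate 1, 28 of the 37 genes lay above their own mean over the 6 arrays, and on CGP replicate 2, 25 did. On CGP replicate 3 only 18 did, against 16 to 18 on the CON arrays. That array was also lower over all genes. Its median deviation from the genes' own means was -0.013 over all genes and -0.0069 over the members. Over all genes it was 0.0056 on CGP replicate 1 and 0.0041 on CGP replicate 2. Without CGP replicate 3, 7 members had an unadjusted p under 0.05 and the median was 0.023.

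Other genes of the synapse gave no calls either. Of 35 further postsynaptic genes 32 were tested, with 0 called at the adjusted p, 4 higher and 2 lower at an unadjusted p under 0.05 and a median difference of 0.0039. Their largest differences were those of Itpka, an inositol trisphosphate kinase of spines (-0.18, adjusted p = 0.468), and Lin7a, a scaffold (-0.14, adjusted p = 0.378, both limma). The CGP arrays lay all above the CON arrays for 5 of the 32 (15.6%) and all below for 4 (12.5%), against 7.69% and 9.63% of all genes. At an unadjusted p under 0.05 from limma, 5.26% of all genes were higher and 5.58% lower. Of 25 other synaptic adhesion genes 22 were tested and 0 called, with 1 higher and 0 lower at an unadjusted p under 0.05 and a median of 0.0066, the largest differences being those of Il1rapl1 (0.15, adjusted p = 0.453) and Lrfn1 (0.11, adjusted p = 0.424, both limma). At the inhibitory postsynapse, 4 of 6 listed genes were tested and 0 called, also at an unadjusted p under 0.05, Nlgn2 among them. The largest after Nlgn2 was Insyn1 (0.051, adjusted p = 0.643 from limma).

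**Figure D4:**
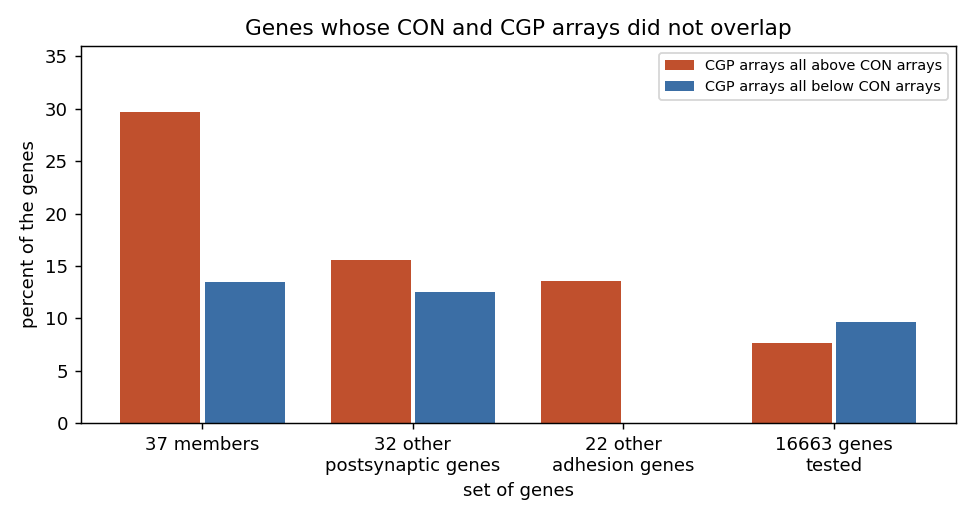
Percent of genes whose CGP arrays all lay above (left bar) or all below (right bar) the CON arrays, for the 37 members, the other postsynaptic genes, the other adhesion genes and all genes tested. The members stand at 29.7% and 13.5% against 7.69% and 9.63% over all genes; the bars are shares with no error and no test.

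The hypothalamus was cut out as a block, as the methods describe for male mice, and markers of neighbouring regions and other cells also differed between the pools. The labels name hypothalamus as the source and adrenal glands as the organ harvested. In tissue, a smaller share of a cell type and less RNA per cell cannot be told apart. The hypothalamic list, with 14 of 15 genes measured above the filter, had a mean level per array of 9.90 to 9.92 in CON and 9.96 to 10.01 in CGP, with 1 gene called (Pomc, a difference of 1.56). Its median difference was -0.014, with 6 genes above 0 and 8 below. Thalamus markers were higher, with 2 of 10 called (Ptpn3 and Prkcd), a median difference of 0.20 and a mean level of 10.66 to 10.70 in CON and 10.83 to 10.86 in CGP. Striatum markers, of a region rich in Shank3, had 0 of 7 tested called, a median of 0.081 and a mean level of 9.74 to 9.77 in CON and 9.81 to 9.82 in CGP. For cortex and hippocampus, where Camk2a is abundant, 0 of 8 were called, the median was 0.035 and the mean level was 9.04 to 9.07 in CON and 9.08 to 9.10 in CGP. None of the 11 marker lists overlapped between the groups in mean level, 6 being higher and 5 lower in CGP. The hypothalamic list was among the 6 though its median was below 0. Its higher mean level came from Pomc, as its other genes had differences between -0.14 and 0.061. The general neuronal list was among the 5, with its nearest arrays at 11.948 in CGP and 11.952 in CON. How often other lists of genes lie apart in this way was not counted. The part of the marker lists in the differences of the 37 genes was not tested.

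General neuronal markers had 0 of 9 called and a median of -0.021, with a mean level of 11.95 to 11.97 in CON and 11.94 to 11.95 in CGP. Lists of other cells were lower in median, astrocytes at -0.059 (0 of 8 called), oligodendrocytes at -0.067 (0 of 7) and microglia at -0.083 (0 of 7). The meninges list was lowest, at -0.26, with 5 of 10 called lower (Prg4, Ogn, Fmod, Slc6a20a and Igf2). Choroid plexus had 2 of 8 called higher (Ttr and Slc4a5, median 0.20) and anterior pituitary 2 of 6 (Lhb and Gh, median 0.12). Over all genes tested, 0.144% were called higher and 0.138% lower. The CGP arrays lay all above the CON arrays for 80% of thalamus and 75% of choroid plexus markers. They lay all below for 71.4% of oligodendrocyte and 70% of meninges markers. Each of these lists had 0% the other way, and the shares over all genes were 7.69% above and 9.63% below.

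**Figure D5:**
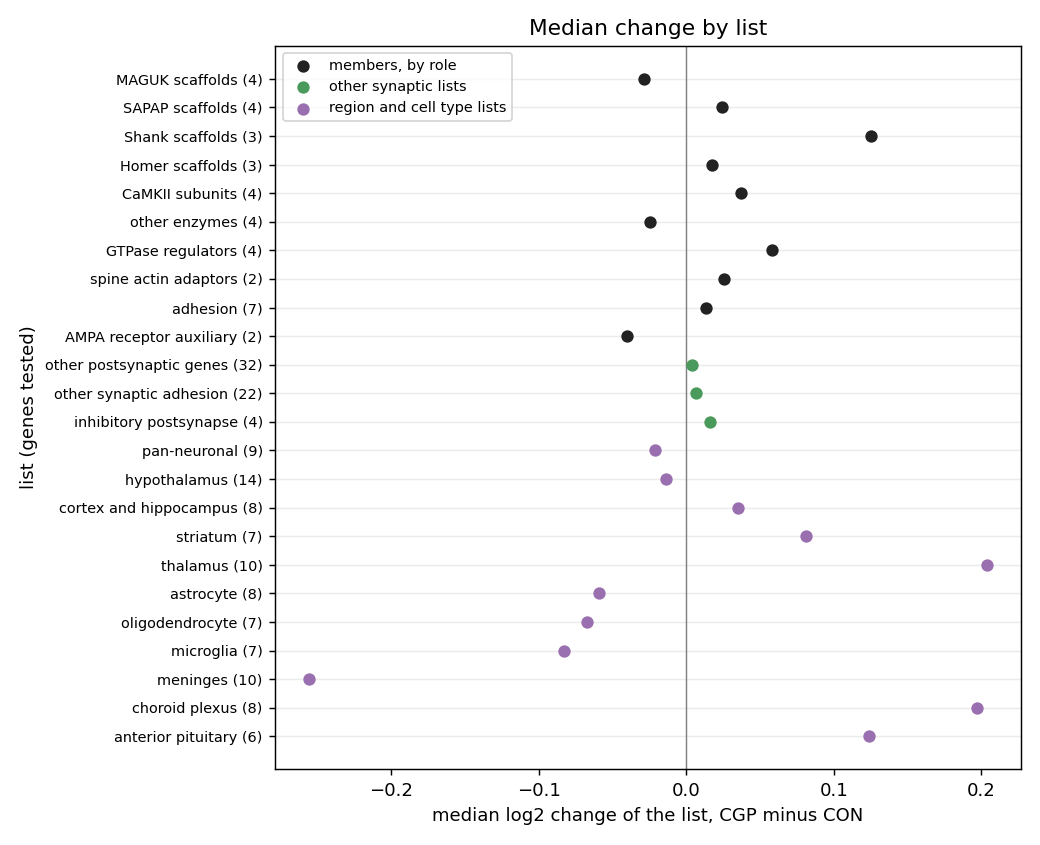
Median log2 change, CGP minus CON, of each list, with the number of genes tested in brackets. Black points are the 37 genes by role, green points other synaptic lists and purple points lists of regions and cell types. The Shank genes (0.13, the value of the Shank2 probeset used) lie to the right of the other roles. Thalamus (0.20), choroid plexus (0.20) and meninges (-0.26) lie furthest from 0.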

How the data were processed

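Hypothalamic RNA of female mice, pooled from 18 mice per group, was measured on 6 Affymetrix Mouse Gene 1.0 ST arrays. The authors deposited log2 values made by RMA (background correction, quantile normalization and median polish). Their processing notes name RMA and Partek, with versions not given in the sources used here. Array medians over all probesets lay between 8.19 and 8.21. The table held 28471 probesets, of which 18690 had 1 gene in the GEO platform annotation, 1163 had several and 8618 were not listed. Of the 18690, 18620 matched RefSeq (GRCm38.p6) by Entrez identifier. As in the methods, probesets without 1 gene were left out, as were values below 6, here 451 probesets with a mean below 6. This left 18239 probesets of 16663 genes.

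The groups were compared by a moderated linear model (lmFit, eBayes) of the limma package, version 3.58.1, in R 4.3.3. All 6 arrays entered without covariates, and Benjamini-Hochberg adjustment ran over all tested probesets. The methods name ANOVA, which was run as an alternative. Called means an adjusted p under 0.05. The code was tested on simulated data. Levels of different probesets are not comparable. All 37 members are named, and of the synaptic lists the called genes or otherwise the 2 with the largest change, and of the marker lists the called genes. Members and lists were chosen with earlier results of these data known. Alternatives were the filters, the variance model, array weights, centring, the replicate block, the probeset summary, the fold threshold and each array left out. The number of arrays limits the precision, and their spread, taken as technical, does not cover differences between mice.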

Additional observations from a re-analysis of the deposited data

How the results depend on the processing

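No member was called at the adjusted p in 13 of the 14 settings that refit the model, nor with the 1.4-fold threshold added. With a trended and robust eBayes, 2 members were called higher, Shank3 (adjusted p = 0.0132 from limma) and Lrrtm1 (adjusted p = 0.0411), and that setting called 249 probesets over the table against 51. Over the 14 settings the change of Shank3 lay between 0.18 and 0.23 and that of Lrrtm1 between 0.14 and 0.19. Of the 37 members 26 kept their direction in all 14, and the other 11 had reported changes of at most 0.036 in size, with up to 0.092 (Dlgap1) in another setting. The 8 members at an unadjusted p under 0.05, all higher, became 5 to 7 on leaving out single arrays (5 without either of CON replicates 1 and 2). Of the 6 without CGP replicate 1, Dlg1 was lower, and of the 6 without CGP replicate 2, Cnih3 was lower. The count became 10 with ordinary ANOVA (8 higher, 2 lower) and 11 with the trended and robust eBayes (9 higher, 2 lower). It was 10 with centred arrays (0 lower), and with array weights 7 were higher and 1 lower (Dlg1). Calls over the table moved as well, to 6 to 10 probesets with 1 array left out and 6 with ANOVA. The share of all genes at an unadjusted p was taken in the main setting only, so these counts have no background beside them. The members' median of 0.017 became 0.029 with centred arrays and 0.0041 to 0.026 with 1 array left out, the lowest without CON replicate 3; the cause was not tested. The counts of 11 and 5 members with groups apart lay between 10 and 13 and between 5 and 7. With an array left out the shares over all genes went up to 14.7% above and 18.9% below, both without CGP replicate 1, where 12 members lay above and 7 below. Replicate numbers paired no arrays (correlations of same-numbered deviations 0.078, -0.18 and 0.11), and with the replicate number as a block 0 members were called higher or lower and 6 had an unadjusted p under 0.05. The 3 arrays per group limit the precision, and their spread, taken as technical, does not cover differences between mice.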
